A study of Homo sapiens with 74 samples.

Results

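Centromere and kinetochore genes were followed through a study of HEK293T cells, an established human embryonic kidney line that carries a viral large T antigen, which binds p53 and the RB family. The 35 genes were chosen by symbol from textbook membership of the inner and outer kinetochore, with earlier results of these data known. They came from 39037 genes in the RNA table, and all 35 passed the filter on low counts that left 17738 genes for testing. They comprised 4 genes of the CENP-A nucleosome and its loading (CENPA, CENPB, CENPC, OIP5), 12 of the constitutive centromere-associated network or CCAN (CENPH, CENPI, CENPK, CENPL, CENPM, CENPN, CENPO, CENPP, CENPQ, CENPT, CENPU, CENPW), 9 of the KMN network and its partner ZWINT (KNL1, ZWINT, MIS12, DSN1, NSL1, NDC80, NUF2, SPC24, SPC25), 5 of the spindle assembly checkpoint (BUB1, BUB1B, BUB3, MAD2L1, ZWILCH) and 5 of the corona and the SKA complex (CENPE, CENPF, SKA1, SKA2, SKA3). The genomic bins of CENPC and CENPW, of 100 kb each, were added because they lie in regions that contact the nuclear lamina, so their bulk lamina signal is a description here and was not tested.

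The study mapped lamina contact by DamID, in which the bacterial adenine methyltransferase Dam is fused to lamin B1 (LMNB1) and marks GATC sites near the nuclear envelope. PolyA RNA libraries were made in 4 groups of 2: untreated cells (transfection "none"), cells given m6A-Tracer (a fluorescent reader of methylated adenine), cells given DamV133A (untethered Dam with the V133A substitution) and cells given DamV133A-LMNB1 (called the fusion below). DNA was measured in 4 bulk DamID libraries (DamV133A and the fusion, 2 each), in 8 further libraries that compared wild-type Dam (DamWT) with DamV133A, each alone and fused to LMNB1 (2 each), and in 54 single cells: 15 fusion and 3 DamV133A cells of a first batch with m6A-Tracer, and 36 cells of a second batch with DamV133A-tdTomato-LMNB1 and m6A-Tracer-NES. The labels give all 74 samples the same treatment text, transient transfection with FuGene HD and 1 mM Shield-1 for 20 hours, which stands against "none" for the untreated libraries. All constructs were transient, so each bulk library mixes cells with different amounts of the constructs. The labels do not say that same-group libraries came from separate cultures, so p-values measure the spread between these libraries only.

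The kinetochore is built on nucleosomes that carry the histone variant CENP-A; CENP-C and the CCAN bind these through the cell cycle and in mitosis recruit the KMN network, whose NDC80 complex holds the microtubule. Checkpoint proteins on KNL1 delay anaphase until all chromosomes are attached, and CENP-E, CENP-F and the SKA complex act at the microtubule interface. Many of these genes are transcribed mainly in G2 and mitosis, under CHR, CCAAT and E2F promoter elements.

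The RNA libraries held between 39690886 and 51455298 estimated counts. LMNB1 itself, which checks the fusion label, was at 2548 and 2056 CPM (counts scaled for library size) in the fusion libraries, against 249.6 and 253 with DamV133A, 251 and 257 with m6A-Tracer and 767 and 768 in untreated cells. The fusion libraries were the highest, as labelled, but DamV133A and m6A-Tracer stood below untreated cells (-1.61 and -1.59 log2), and the part of this difference in what follows was not tested. Whether the untreated label holds was not tested, and every contrast with untreated cells rests on it as given. The 2 fusion libraries also differed from each other more than any other pair did, with a median absolute difference of 0.186 log2 over all genes against 0.066 to 0.069 in the other groups. Of 8 genes known from HEK293 cells (VIM, KRT8, KRT18, NEFM, NEFL, GATA3, PAX2, EPCAM), all were detected, and their summed level was 1267 to 1312 CPM in untreated and 879 to 1068 CPM in transfected libraries. NEFM, NEFL and VIM were called lower in each transfected group, and the part of this shift in the results below was not tested. Of 7 markers of other cell types, CD3E, CDH5 and HBB were too low to test, none of the other 4 (PTPRC, PECAM1, DCN, ALB) was called in any contrast, and the summed level of all 7 was 1.68 to 2.65 CPM, with 0 to 3 of them at 0 in a library. In bulk samples, fewer cells in G2 or mitosis and less RNA per cell cannot be told apart.

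The promoters show which members carry the letters of elements known from mitotic genes. RefSeq windows of 250 bases before the annotated start (GRCh38.p14, first entry per gene) were found for 30 of the 35 genes. CCAAT was searched on both strands, as were CHR, spelled TTTGAA and also TTCGAA, and E2F, spelled TTTCCCGC and also TTTGGCGC and also TTTCGCGC and also TTTGCCGC. CCAAT was in 16 of the 30 member promoters (53.3%) and in 33.0% of 27305 promoters, CHR in 5 (16.7%) and in 14.6%, and E2F in 4 (13.3%) and in 2.8%. None of the 3 was found in 13 member promoters. The windows below are those of the 3 members with the most matches and of CENPC and CENPW, whose bins are followed later. They are written 5′ to 3′ on the gene's strand, with matched letters in capitals. A match is only a run of letters.
SKA2 (chr17:59155187-59155436, minus strand): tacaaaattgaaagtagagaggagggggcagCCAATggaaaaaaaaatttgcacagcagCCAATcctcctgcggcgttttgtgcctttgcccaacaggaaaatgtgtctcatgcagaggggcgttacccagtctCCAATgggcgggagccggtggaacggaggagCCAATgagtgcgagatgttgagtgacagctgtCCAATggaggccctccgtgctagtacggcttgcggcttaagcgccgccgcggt
CENPA (chr2:26785806-26786055, plus strand): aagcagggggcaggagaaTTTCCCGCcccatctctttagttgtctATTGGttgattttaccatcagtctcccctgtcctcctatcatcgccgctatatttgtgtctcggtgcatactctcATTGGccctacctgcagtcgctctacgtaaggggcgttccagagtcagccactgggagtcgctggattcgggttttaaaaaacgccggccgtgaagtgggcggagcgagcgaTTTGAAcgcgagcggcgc
OIP5 (chr15:41332592-41332841, minus strand): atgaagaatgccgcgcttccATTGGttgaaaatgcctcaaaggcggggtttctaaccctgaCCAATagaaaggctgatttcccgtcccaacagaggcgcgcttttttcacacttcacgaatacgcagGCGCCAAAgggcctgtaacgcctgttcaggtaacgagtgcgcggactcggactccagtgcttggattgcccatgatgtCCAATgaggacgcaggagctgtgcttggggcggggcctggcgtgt
CENPC (chr4:67545504-67545753, minus strand): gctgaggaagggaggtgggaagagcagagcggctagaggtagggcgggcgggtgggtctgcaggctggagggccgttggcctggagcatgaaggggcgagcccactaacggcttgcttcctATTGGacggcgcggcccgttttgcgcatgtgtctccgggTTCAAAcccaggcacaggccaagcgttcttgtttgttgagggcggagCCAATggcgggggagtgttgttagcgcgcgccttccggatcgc
CENPW (chr6:126339865-126340114, plus strand): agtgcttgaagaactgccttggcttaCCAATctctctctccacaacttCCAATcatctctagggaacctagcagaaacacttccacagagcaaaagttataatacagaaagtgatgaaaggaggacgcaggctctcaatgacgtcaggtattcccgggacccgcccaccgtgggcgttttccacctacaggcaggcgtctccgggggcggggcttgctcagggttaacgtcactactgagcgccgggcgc
CENPA held all 3 kinds, with its CHR match 18 bases before the start, 2 CCAAT matches 205 and 130 bases before it and an E2F match 232 bases before it. OIP5, also called Mis18-beta and needed to license new CENP-A, had an E2F match 123 bases and 3 CCAAT matches 230, 189 and 45 bases before its start. SKA2 had 5 CCAAT matches and neither other kind. CENPC had a CHR match 90 bases and CCAAT matches 129 and 43 bases before its start, whereas CENPW had only 2 CCAAT matches, 224 and 202 bases before it.

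Against untreated cells, CENPL, NDC80, MIS12, SKA1 and SKA3 were called higher in each of the 3 transfected groups, and few members were called lower. Counts were tested with edgeR's quasi-likelihood test on all 4 groups with Benjamini-Hochberg adjustment over the 17738 genes, and a gene is called at an adjusted p under 0.05. With the fusion, 9 of the 35 genes were higher and 1 was lower, where 11.4% of all genes were called higher and 7.57% lower (18.9% called in all). With DamV133A, 11 were higher and 2 lower, beside 13.6% and 13.1% of all genes (26.7% in all). With m6A-Tracer, 5 were higher and 1 lower, beside 7.62% and 4.66% (12.3% in all). The median log2 difference of the 35 genes was 0.16, 0.14 and 0.10 in the same order, against 0.00, 0.01 and 0.01 over all genes. These 3 contrasts share the 2 untreated libraries. In 13 of the 35 genes all 6 transfected libraries lay above both untreated ones and in 1, MAD2L1, all 6 lay below, where 16.7% and 14.9% of all genes tested did so.

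These counts moved with single libraries. Leaving out fusion replicate 1 raised the calls of the fusion contrast, among the members and among all genes. Leaving out any untreated, DamV133A or m6A-Tracer library lowered them in both. The DamV133A contrast called 26 genes (20 higher, 6 lower) without both fusion libraries, beside 50.0% of all genes (24.8% higher, 25.2% lower). Its calls fell, among members and all genes, without any DamV133A or untreated library. The m6A-Tracer contrast called 22 (17 higher, 5 lower) without both fusion libraries, beside 39.6% of all genes (19.3% higher, 20.4% lower). Its calls also fell, among members and all genes, without any DamV133A, m6A-Tracer or untreated library. Scaling to library totals shifted the median of all genes by up to 0.10 log2 and called 17 higher and 1 lower with DamV133A and 8 higher and 0 lower with m6A-Tracer. These counts under library totals stand without a share over all genes. The plot of levels by library shows every gene.

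**Figure D1:**
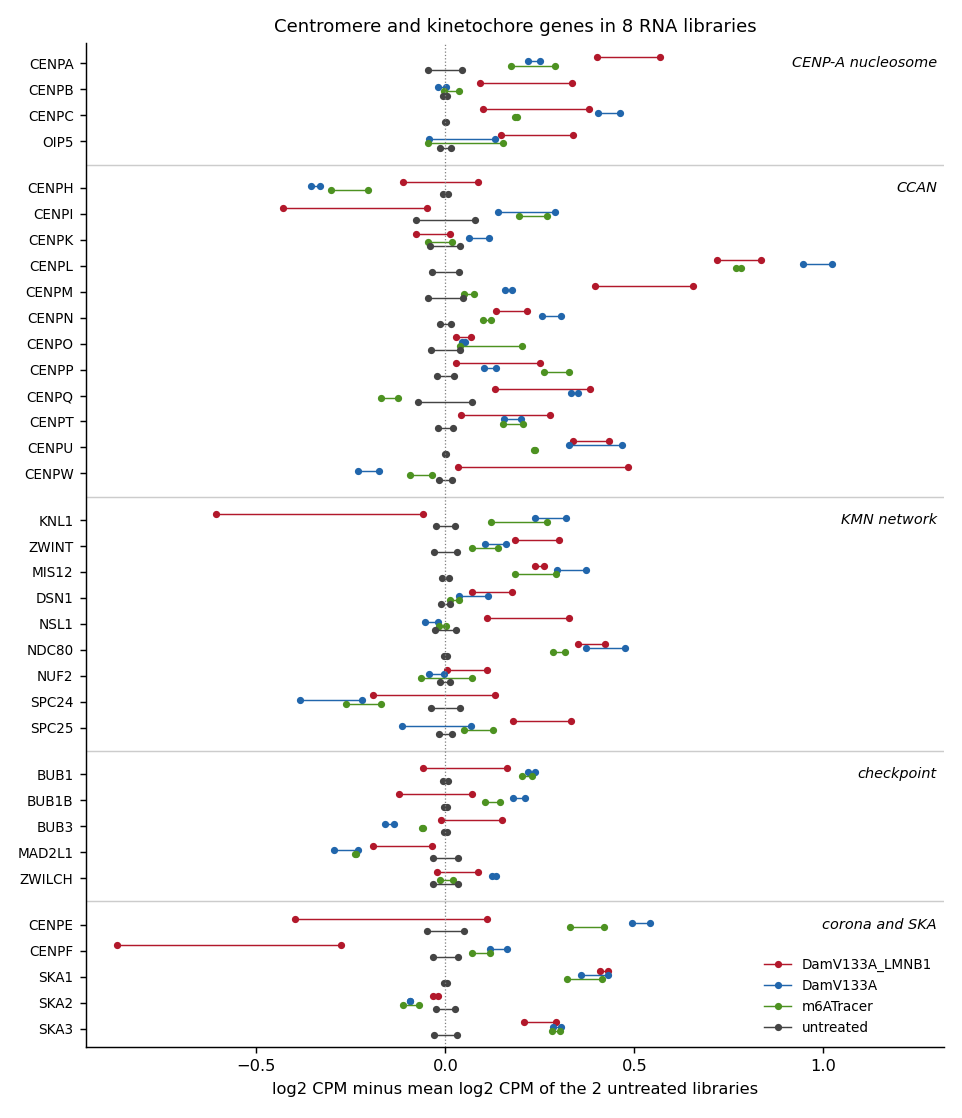
Levels of the 35 genes in the 8 RNA libraries, as log2 CPM minus the mean of the 2 untreated libraries; points are libraries, lines join the 2 of a group, and grey lines part the 5 roles. CENPL stands farthest above the untreated libraries in all 3 transfected groups, and the red lines of the fusion are long for KNL1, CENPE, CENPF and CENPW.

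Among the CENP-A nucleosome genes, the histone variant itself was raised with the fusion. CENPA (ENSG00000115163) was at 26.5 and 28.2 CPM in untreated libraries, 30.8 and 33.4 with m6A-Tracer, 31.7 and 32.5 with DamV133A and 36.1 and 40.5 with the fusion. Both fusion libraries were above every other library and both untreated libraries were below. The log2 difference from untreated cells was 0.49 ± 0.08 (SE, n = 2 libraries a group) with the fusion, with an edgeR adjusted p of 0.00637, and 0.23 with each of the other transfected groups, which was not called. CENPC (ENSG00000145241), the scaffold that ties CENP-A nucleosomes to the outer kinetochore, was at 26.3 and 26.3 CPM in untreated libraries, 30.0 and 29.9 with m6A-Tracer, 34.8 and 36.2 with DamV133A and 34.2 and 28.2 with the fusion. All transfected libraries lay above the untreated ones, but the second fusion library lay near the m6A-Tracer pair. CENPC was called only against untreated cells and with DamV133A, at 0.43 ± 0.09 (adjusted p 0.0113, edgeR). CENPB, which binds a DNA box in alpha satellite, and OIP5 differed from untreated cells by 0.22 and 0.24 with the fusion and were not called in any contrast.

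In the CCAN, CENPL gave the largest difference of the 35 genes in each contrast with untreated cells. CENPL (ENSG00000120334), which with CENP-N reads the CENP-A nucleosome, was at 16.4 and 15.6 CPM in untreated libraries, 27.6 and 27.3 with m6A-Tracer, 30.9 and 32.6 with DamV133A and 28.6 and 26.4 with the fusion. All 6 transfected libraries were well above the untreated pair and overlapped among the groups given m6A-Tracer and the fusion. The difference was 0.78 ± 0.07, 0.99 ± 0.07 and 0.77 ± 0.07 log2 with the fusion, DamV133A and m6A-Tracer, with edgeR adjusted p of 0.000786, 0.00016 and 0.000835. CENPU (ENSG00000151725), a docking site for the kinase PLK1, was at 71.3 and 71.2 CPM in untreated libraries, 83.8 and 84.0 with m6A-Tracer, 89.4 and 98.5 with DamV133A and 90.04 and 96.2 with the fusion. All 6 transfected libraries lay above the untreated pair. It was called with the fusion (0.39 ± 0.06) and with DamV133A (0.40 ± 0.06), and was at 0.23 ± 0.06 with m6A-Tracer, adjusted p 0.0523 by edgeR.

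Other CCAN genes differed between the transfected groups. CENPM was at 37.3 and 34.9 CPM in untreated libraries, 37.3 and 38.0 with m6A-Tracer, 40.7 and 40.3 with DamV133A and 47.5 and 56.9 with the fusion. Only its fusion libraries stood clear, at 0.53 ± 0.09 against untreated cells (adjusted p 0.00697, edgeR) and 0.36 ± 0.09 against DamV133A (adjusted p 0.0293). CENPH was at 73.5 and 72.8 CPM in untreated libraries, 59.3 and 63.5 with m6A-Tracer, 58.1 and 57.2 with DamV133A and 67.7 and 77.6 with the fusion. It was lower with DamV133A than in untreated cells (-0.34 ± 0.07, adjusted p 0.0132, edgeR) and higher with the fusion than with DamV133A (0.33 ± 0.07, adjusted p 0.0259). CENPN and CENPQ were called higher with DamV133A against untreated cells, at 0.28 ± 0.06 and 0.34 ± 0.09, and CENPI lower with the fusion than with DamV133A, at -0.44 ± 0.12. CENPK, CENPO, CENPP and CENPT were called in no contrast.

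CENPW (ENSG00000203760), a histone-fold protein that pairs with CENP-T on DNA, showed a wide gap between the fusion libraries. It was at 38.5 and 39.5 CPM in untreated libraries, 36.6 and 38.1 with m6A-Tracer, 33.2 and 34.5 with DamV133A and 39.9 and 54.5 with the fusion. The second fusion library was far above all others, the first lay beside the untreated pair and the DamV133A pair was the lowest. It was called only between the fusion and DamV133A, at 0.48 ± 0.13 with an edgeR adjusted p of 0.0377.

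In the KMN network, the microtubule-binding NDC80 and its partner MIS12 were higher in each transfected group. NDC80 (ENSG00000080986) was at 40.9 and 40.7 CPM in untreated libraries, 50.9 and 49.7 with m6A-Tracer, 52.9 and 56.7 with DamV133A and 54.7 and 52.1 with the fusion. No transfected library overlapped the untreated pair. The differences were 0.39 ± 0.06, 0.42 ± 0.06 and 0.30 ± 0.06 log2 with the fusion, DamV133A and m6A-Tracer (edgeR adjusted p 0.00599, 0.00271 and 0.0198). MIS12, a link between CENP-C and NDC80, was at 45.2 and 44.6 CPM in untreated libraries and 51.0 to 58.1 in the transfected ones, and was called at 0.25, 0.33 and 0.24 in the same order. The NDC80 partners NUF2, SPC24 and SPC25 were called in no contrast, so the 4 subunits of that complex did not share a call.

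KNL1 (ENSG00000137812), the platform for the checkpoint kinases, was at 59.0 and 61.2 CPM in untreated libraries, 65.3 and 72.4 with m6A-Tracer, 70.8 and 74.98 with DamV133A and 57.6 and 39.4 with the fusion. Its second fusion library was the lowest of all 8 and the first lay just under the untreated pair. KNL1 was called lower with the fusion than with DamV133A (-0.59 ± 0.15, adjusted p 0.0353, edgeR) and in no contrast with untreated cells. ZWINT, which binds KNL1, was at 160 and 167 CPM in untreated libraries and 172 to 202 in transfected ones, and was called only with the fusion, at 0.24 ± 0.06. NSL1 was higher with the fusion than with DamV133A, at 0.26 ± 0.08 (adjusted p 0.0467), and DSN1 was called nowhere.

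Of the 5 checkpoint genes, 0 were called with the fusion against untreated cells, 1 each way with DamV133A and 1 (lower) with m6A-Tracer. In the same order 18.9%, 26.7% and 12.3% of all genes were called. BUB1 (ENSG00000169679), a checkpoint kinase, was at 156 and 157 CPM in untreated libraries, 180.0 and 183 with m6A-Tracer, 182 and 184 with DamV133A and 175 and 150.1 with the fusion. The fusion libraries fell on either side of the untreated pair, and only DamV133A was called, at 0.23 ± 0.07 (adjusted p 0.0491, edgeR). BUB1B (ENSG00000156970), or BubR1, was at 91.9 and 92.5 CPM in untreated libraries, 102 and 99.1 with m6A-Tracer, 104 and 107 with DamV133A and 96.8 and 84.7 with the fusion, and was called in no contrast. MAD2L1, or MAD2, which inhibits the anaphase-promoting complex, was at 173 and 181 CPM in untreated libraries, 150.0 and 149.7 with m6A-Tracer, 144 and 151 with DamV133A and 155 and 173 with the fusion. All 6 transfected libraries were below the untreated pair, the second fusion library only just. The difference was -0.26 ± 0.06 log2 with DamV133A (adjusted p 0.0196) and -0.24 ± 0.06 with m6A-Tracer (adjusted p 0.0475), both called by edgeR. BUB3 was called higher with the fusion than with DamV133A, at 0.22 ± 0.06, and ZWILCH nowhere.

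Of the corona genes and the SKA complex, CENPF was called lower and SKA1 and SKA3 higher with the fusion against untreated cells, while CENPE and SKA2 were not called. CENPE (ENSG00000138778), a mitotic kinesin, was at 111 and 118 CPM in untreated libraries, 144 and 153 with m6A-Tracer, 161 and 167 with DamV133A and 124 and 86.9 with the fusion. The DamV133A pair was the highest and the fusion libraries straddled the untreated pair, with a called rise of 0.52 ± 0.14 with DamV133A (adjusted p 0.0288, edgeR) and a called difference of -0.64 ± 0.14 between the fusion and DamV133A (adjusted p 0.0241). CENPF (ENSG00000117724), a large coiled-coil protein of G2 nuclei and kinetochores, was at 301 and 316 CPM in untreated libraries, 324 and 334 with m6A-Tracer, 335 and 345 with DamV133A and 255 and 169 with the fusion. Both fusion libraries were below all others, at -0.54 ± 0.16 log2 against untreated cells (adjusted p 0.0458, edgeR) and -0.68 ± 0.16 against DamV133A (adjusted p 0.0268). SKA1, which helps NDC80 follow shrinking microtubules, was at 23.4 and 23.3 CPM in untreated libraries, 31.1 and 29.2 with m6A-Tracer, 29.9 and 31.4 with DamV133A and 31.4 and 31.0 with the fusion. Its 6 transfected libraries were all above the untreated pair, with 0.42 ± 0.06, 0.40 ± 0.06 and 0.37 ± 0.06 log2 for the fusion, DamV133A and m6A-Tracer (edgeR adjusted p 0.00513, 0.00411 and 0.0108). SKA3 was called in the same 3 contrasts at 0.25, 0.30 and 0.29, and SKA2 in none. SKA1 and SPC25 each had counts under 2 gene IDs in the table, which were added up.

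Between the fusion and DamV133A, the members split by gene. The 5 genes higher with the fusion were CENPH, CENPM, CENPW, NSL1 and BUB3, and the 4 lower were CENPE, CENPF, CENPI and KNL1, beside 12.7% and 7.56% of all genes (20.3% called in all). The median over the 35 genes was 0.00 log2, against -0.02 over all genes. Under library totals the split was 2 higher and 7 lower, given without a share over all genes, and the median of all genes shifted to -0.10. Of the 5 members with the largest gaps between the fusion's own libraries, 4 were those called lower. As the plot of replicate differences shows, the second library minus the first was -0.59 log2 for CENPF, -0.54 for KNL1, -0.505 for CENPE and -0.37 for CENPI, and 0.45 for CENPW. In the 3 other groups the members lay between -0.16 and 0.19 log2. Leaving out fusion replicate 1 raised the calls of this contrast, among members and all genes. They nearly vanished in both when any DamV133A, m6A-Tracer or untreated library was left out. With only these 2 groups fitted, 0 members and 1 gene of all were called. The part of single libraries in the result was not tested.

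**Figure D2:**
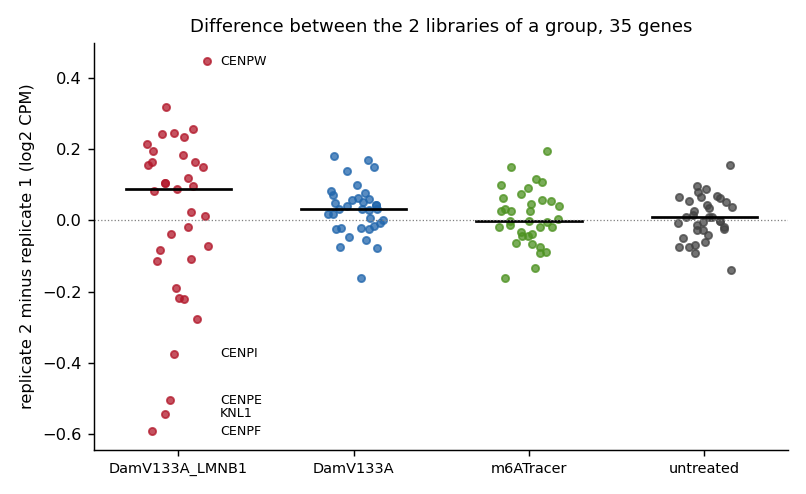
Difference between the 2 libraries of each RNA group (replicate 2 minus replicate 1, log2 CPM) for the 35 genes; points are genes and bars the medians. The fusion's points run from -0.59 (CENPF) to 0.45 (CENPW), and those of the other groups lie between -0.16 and 0.19.

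No member was called by edgeR between DamV133A and m6A-Tracer, where 0.124% of all genes were (0.0507% higher, 0.0733% lower), or between the fusion and m6A-Tracer, where 0.231% were (0.0564% higher, 0.175% lower). At an unadjusted p under 0.05 there were 5 and 13 members, beside 1587 and 5791 of 17738 genes. DESeq2 called 1 and 8 members, beside 57 and 2552 of all genes, and limma-voom called 0 members in both. CENPQ, named here after its values were seen, had the smallest adjusted p of the first contrast. Its libraries were at 18.6 and 18.0 CPM with m6A-Tracer, 25.6 and 25.9 with DamV133A and 22.3 and 26.4 with the fusion, so the m6A-Tracer pair was the lowest. DamV133A and the fusion differed from m6A-Tracer by 0.49 ± 0.09 log2 (adjusted p 0.254, edgeR) and 0.41 ± 0.09 (adjusted p 0.0646). Without either fusion library or both, the contrast of DamV133A with m6A-Tracer called 8 members, 7 higher (among them CENPQ, CENPC, CENPL, CENPE) and 1 lower (BUB3), beside 12.1% of all genes with both left out (5.93% higher, 6.17% lower). Without either fusion library, calls in the fusion's own contrast with m6A-Tracer rose, among members and among all genes.

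Of 26 further kinetochore and centromere genes outside the 35, 13 were higher and 1 lower with the fusion against untreated cells. With DamV133A 15 were higher and 0 lower, and with m6A-Tracer 9 and 0. Their medians were 0.26, 0.24 and 0.20 log2 in the same order. Over all genes, 11.4%, 13.6% and 7.62% were called higher and 7.57%, 13.1% and 4.66% lower. HJURP, the chaperone that loads CENP-A, was higher by 0.56, 0.67 and 0.60 log2 (edgeR adjusted p 0.000934, 0.000231 and 0.000724), and the kinesin KIF18A by 0.67, 0.88 and 0.67 (adjusted p 0.00132, 0.000233 and 0.00153). PLK1, MAD1L1 and CDCA8 were called higher in all 3 as well, while KNTC1, a subunit of the complex that holds ZWILCH, was lower with the fusion at -0.63 log2 (adjusted p 0.0184). Between the fusion and DamV133A 4 were higher, among them CENPX, BOD1 and BIRC5, and 3 lower, among them KNTC1 and SGO2, which were named after their values were seen. Over all genes 12.7% were called higher and 7.56% lower in that contrast.

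Lists for the cell cycle and p53 were measured beside the members, and their part in the members' differences was not tested. Of 20 G2 and mitosis genes, 11, 10 and 6 were higher and 0 lower with the fusion, DamV133A and m6A-Tracer against untreated cells, with medians of 0.21, 0.24 and 0.19 log2; PRC1, a spindle midzone protein, was at 0.36, 0.45 and 0.34. Of 20 S-phase genes, 4 were higher with the fusion, 3 higher and 3 lower with DamV133A and 1 each way with m6A-Tracer, with medians of 0.11, -0.02 and -0.02. Of 14 p53 targets, 11, 12 and 12 were higher and 0 lower, with medians of 0.39, 0.65 and 0.45. The secreted factor GDF15 was at 2.82, 2.66 and 2.20. Against untreated cells, in the same order, 11.4%, 13.6% and 7.62% of all genes were called higher and 7.57%, 13.1% and 4.66% lower. Between the fusion and DamV133A, 9 S-phase genes were higher and 0 lower, 2 G2 and mitosis genes higher and 3 lower, and 1 p53 target higher and 3 lower. In that contrast 12.7% of all genes were called higher and 7.56% lower. With only these 2 groups fitted, the contrast called 1 gene of all, so the list counts rest on the fit with all groups.

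At the nuclear lamina, most kinetochore genes lay in bins with little contact. Of the 35 genes, 34 had the 100 kb bin of their midpoint in the bulk table, which holds autosomes only, and CENPI on chromosome X did not. With the fusion over DamV133A, 23 of these bins were called lower and 6 higher by edgeR, where 36.2% and 35.2% of 27944 bins were (71.5% in all), and their median was -0.70 log2 against -0.06 over all bins. Bins of other expressed genes were not measured apart, so a difference from them was not tested. The 6 higher bins were those of CENPW (1.48 ± 0.14), ZWINT (1.27 ± 0.16), CENPC (0.94 ± 0.19), MAD2L1 (0.79 ± 0.17), CENPQ (0.55 ± 0.18) and CENPE (0.46 ± 0.18), and CENPC and CENPW count among them by choice. CENPA was the lowest, at -1.37 ± 0.24, and the bins of CENPK, NDC80, NUF2, SPC25 and CENPF were called neither way. Under library totals 4 bins were higher and CENPQ and CENPE were not called, and without DamV133A replicate 2 the lower bins numbered 13. The authors' deposited marks of control bins put 0 of the 34 in lamina-associated and 2 in inter-lamina control bins.

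**Figure D3:**
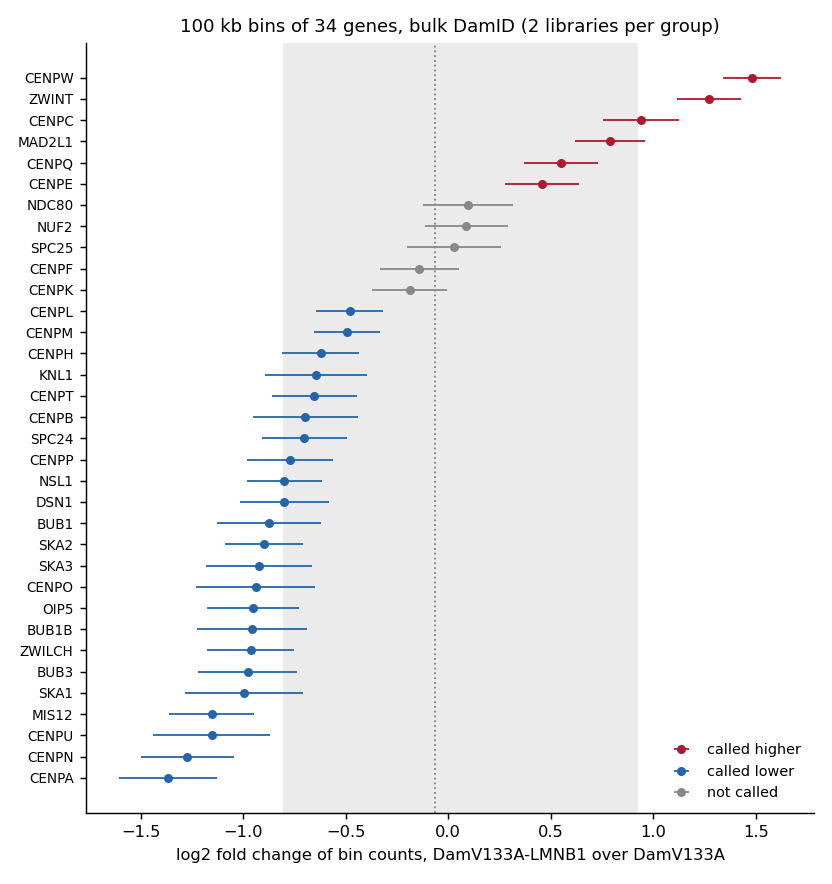
Bulk lamina contact of the 34 members' 100 kb bins, as log2 fold change of bin counts with the fusion over DamV133A (points, with SE; 2 libraries a group); the grey band is the middle 50% of all bins and the dotted line their median. The 6 bins called higher lie at 0.46 or above, and 23 are called lower, down to -1.37 for CENPA.

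RNA was set beside this class. In the 6 genes of the higher bins the median RNA difference between DamV133A and untreated cells was 0.24 log2, with CENPC, CENPE and CENPQ called higher and MAD2L1 lower, and in the 23 genes of the lower bins it was 0.17, with 7 higher and 1 lower. Over all genes, 13.6% were called higher and 13.1% lower with DamV133A against untreated cells. Between the fusion and DamV133A the medians of the higher and lower bins' genes were 0.02 and 0.02. The difference between these classes was not tested.

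The CENPC gene spans 76742 bases of chromosome 4 (hg38, chr4:67468762-67545503), and its bin, chr4:67500001-67600000, holds the gene's start. The bin lies inside a run of 131 bins called higher in bulk, 13.1 Mb long, 10000 kb from one edge and 3000 kb from the other. It was one of the weakest of the run, rank 121 of 131, at 0.94 log2 where the run's median was 1.44. Its bulk levels were 70.8 and 56.3 CPM with the fusion and 33.8 and 32.4 with DamV133A. The CENPW gene spans 143206 bases of chromosome 6 (hg38, chr6:126340115-126483320), and its midpoint bin, chr6:126400001-126500000, holds the gene's end while its start is in the bin before, at 0.81 log2. This run was 12 bins long (1.2 Mb), with edges 300 kb and 800 kb away, and the CENPW bin was rank 4 in it, at 1.48 where the median was 1.297. Its bulk levels were 128 and 137 CPM with the fusion and 46.9 and 47.9 with DamV133A. The profile plot shows the bins around CENPC below those farther out in a wide domain, and CENPW near the lower edge of a narrow one.

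**Figure D4:**
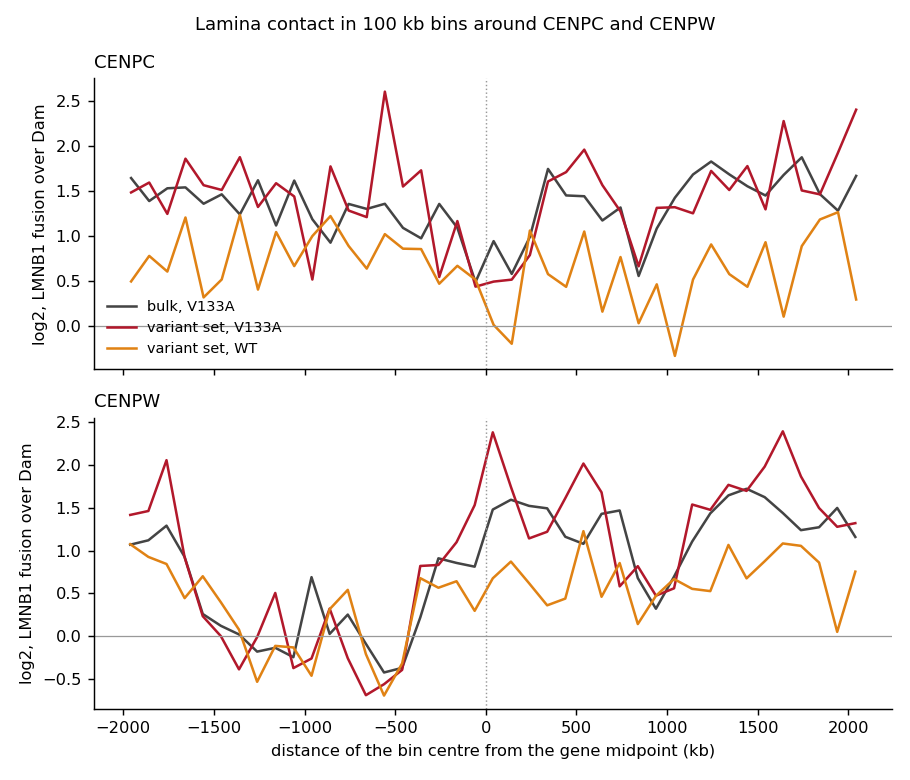
Lamina contact in 100 kb bins within about 2 Mb of CENPC and CENPW, as log2 fold change of the LMNB1 fusion over Dam alone, against distance from the gene midpoint in kb; lines are the bulk libraries and the V133A and wild-type (WT) libraries of the variant set. At the CENPC bin the V133A line is at 0.49, and at the CENPW bin at 2.38.

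The separate libraries that compared Dam variants tested these bins anew. The CENPW bin was at 46.7 and 50.0 CPM with DamV133A, 250.3 and 254 with DamV133A-LMNB1, 83.6 and 80.9 with DamWT and 146 and 117 with DamWT-LMNB1. The V133A fusion pair stood far above every other library, and the WT fusion pair stood above both untethered pairs. With V133A the fusion was higher by 2.38 ± 0.22 log2 (edgeR adjusted p 5.41e-05), at percentile 99.3 of all bins, and with WT by 0.68 ± 0.21 (adjusted p 0.0885). In the bin before, which holds the gene's start, the V133A effect was 1.53 and the WT effect 0.30. Their difference there, 1.24, was not called (adjusted p 0.115, edgeR). At the midpoint bin the difference between the V133A and WT effects was 1.71 ± 0.30, adjusted p 0.0449 by edgeR. That call ended (adjusted p 0.115 to 0.299) without DamWT-LMNB1 replicate 1 or any one of the 4 untethered libraries.

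At the CENPC bin the same libraries were at 31.0 and 39.0 CPM with DamV133A, 40.3 and 58.0 with DamV133A-LMNB1, 35.0 and 39.5 with DamWT and 40.2 and 34.6 with DamWT-LMNB1. The WT pairs overlapped, and the lower V133A fusion library lay just above the untethered ones. The V133A effect was 0.49 ± 0.34 (adjusted p 0.234, edgeR), the WT effect 0.01 ± 0.34 (adjusted p 0.989) and their difference 0.48 ± 0.48 (adjusted p 0.587). None was called, but over the gene with 100 kb on either side the V133A effect was 0.66 ± 0.22, adjusted p 0.0255.

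Across all 35 members in the variant set, V133A gave 2 bins called higher (CENPW and ZWINT) and 16 lower, beside 27.0% and 23.7% of 28733 bins (50.7% in all), with a median of -1.27 log2 against -0.10. The ZWINT bin was at 42.4 and 47.4 CPM with DamV133A and 145 and 125 with its fusion, a rise of 1.59 ± 0.25 (adjusted p 0.000291, edgeR). WT called 0 of the 35 by edgeR, where 2.63% of all bins were called (2.42% higher, 0.212% lower), with 4 at an unadjusted p under 0.05 and 4 by DESeq2. The effects of V133A and WT differed at 3 member bins, beside 0.494% of all bins (0.136% higher, 0.358% lower): CENPW, higher with V133A, and CENPI and NSL1, lower with V133A. The CENPI and NSL1 calls also ended without DamWT-LMNB1 replicate 1 or any one of the 4 untethered libraries (adjusted p 0.115 to 0.299 and 0.117 to 0.299, edgeR). The CENPI bin, on chromosome X, was at 69.6 and 50.8 CPM with DamV133A, 4.54 and 2.55 with its fusion, 62.5 and 46.7 with DamWT and 41.7 and 38.1 with its fusion. Its V133A fusion libraries were far below all 6 others.

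In single cells the same bins were scored as observed over expected fragments, with the expected number from each cell's total (9526 to 348793 fragments) and the bin's share of the bulk DamV133A libraries. A value of 1 or more counts as contact in LMNB1 cells. At the CENPW bin, 11 of 15 fusion cells of the first batch reached 1 (73.3%, exact Clopper-Pearson 95% interval 44.9% to 92.2%) and 18 of 36 of the second (50.0%, 32.9% to 67.1%). With cells thinned to 10000 fragments, leaving out 1 shallower cell, the shares were 5 of 14 (35.7%) and 17 of 36 (47.2%). A cell of 9526 fragments has 0.49 expected fragments at this bin. At the thinned depth 1 fragment therefore reaches the threshold, so these shares record detection and cannot settle the batches' order. The lowest, median and highest values were 0, 1.44 and 3.07 in the first batch and 0, 1.02 and 3.20 in the second. The 3 DamV133A cells were at 0.238, 0.261 and 0.208, so 0 of 3 reached 1 (0% to 70.8%). Fusion cells thus spread from no fragment to over 3 times the expected number, and the untethered cells sat low.

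At the CENPC bin, 7 of 15 fusion cells reached 1 in the first batch (46.7%, 21.3% to 73.4%) and 16 of 36 in the second (44.4%, 27.9% to 61.9%), with medians of 0.873 and 0.932. All 3 DamV133A cells reached it, at 1.60, 3.00 and 2.39, on 14, 8 and 8 fragments. The untethered cells were therefore not below the fusion cells at this bin, and with 3 of them the interval had a lower bound of 29.2%. With 4.39 and 4.73 expected fragments a fusion cell in the first and second batch, single values at this bin rest on few fragments, and intervals cover counting error only.

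**Figure D5:**
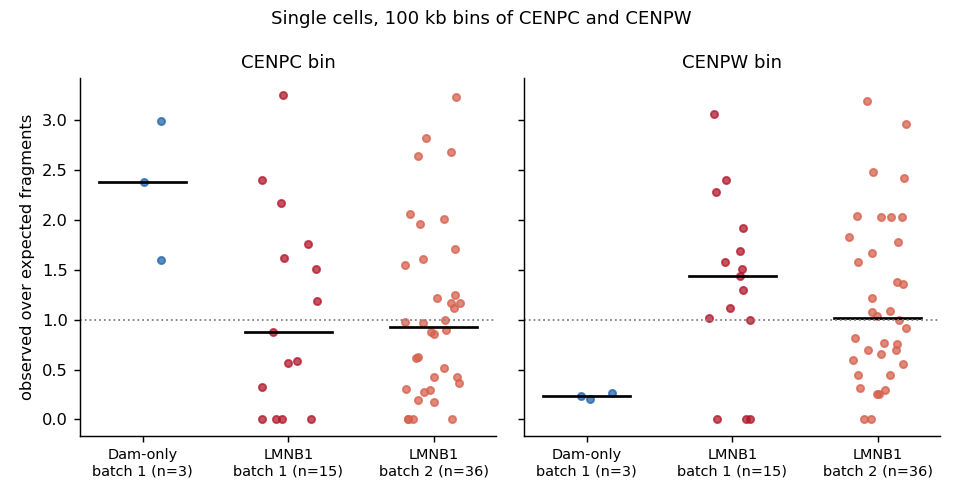
Observed over expected fragments of single cells at the CENPC and CENPW bins; each point is a cell, bars are medians and the dotted line marks 1. Untethered DamV133A cells lie above 1 at CENPC and under 0.3 at CENPW, and fusion cells of both batches spread from 0 to above 3.

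Set against all bins called higher in bulk, the CENPW share was above 71.9% of 9849 such bins in the first batch but above only 17.5% in the second (both from unthinned cells), and the CENPC share above 15.2% and 10.4%. The mean share over those bins was 59.8% and 62.3%, and over 10119 bins called lower 14.3% and 17.2%. Both genes' shares lay above the mean of the lower class in both batches. In unthinned cells such shares were not confined to higher bins. SKA1, in a bin called lower, was at 20.0% and 50.0%, and SPC25, in a bin called neither way, at 46.7% and 63.9%. The 2 batches were not tested against each other, since batch, construct and library kit changed together and cannot be told apart. In the first batch 7 cells had contact at both bins, 4 at CENPW alone, 0 at CENPC alone and 4 at neither; in the second the numbers were 6, 12, 10 and 8. Over the 6 members of higher bins the median share was 46.7% and 44.4%, and over the 23 of lower bins 13.3% and 11.1%. The classes and the expected fragments use the same bulk DamV133A libraries, and CENPC and CENPW were chosen for their bins. The gap between classes is thus partly fixed in advance and is a description only.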

How the data were processed

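RNA was measured in 8 polyA libraries and lamina contact in 12 bulk and 54 single-cell DamID libraries. The authors deposited estimated counts per gene (rounded here), counts per DpnI fragment for the Dam variants, and, per the file headers, counts per 100 kb bin (hg38) for bulk libraries and single cells, with the authors' log2 fold change and 0 or 1 control marks per bin. Tools listed per the submitters' processing notes were Salmon, DESeq2, limma, bedtools 2.28, SAMtools 1.9, BWA 0.7.15-r1140 and Trimmomatic 0.39, without the file each one made. Variant fragments were summed into 100 kb bins. Genes were found by symbol and bins by the gene's midpoint.

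Tests used edgeR 4.0.16 (quasi-likelihood, filterByExpr, TMM, R 4.3.3) over all groups of a table, with Benjamini-Hochberg adjustment over all features and a threshold of 0.05. DESeq2 1.42.0 and limma 3.58.1 were alternatives, with other scalings, filters, blocks and left-out libraries. CPM are TMM-scaled. The members, lists and rules were chosen with earlier results of these data known. Genes given in every library were CENPA, CENPC, CENPW, NDC80, KNL1, CENPE, CENPF, BUB1, BUB1B and up to 8 called members per contrast by adjusted p. The lists were further kinetochore, G2 and mitosis, S-phase, p53, HEK293 and other cell type genes; 1 further marker gene is not reported here. In data simulated for DamV133A against untreated cells (17731 genes), 60% of genes changed 1.5-fold and 76% changed 2-fold were recovered. Bulk libraries held 402171358 to 524019579 counts, variant libraries 3162041 to 10666805 and cells 9526 to 348793 fragments.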

Additional observations from a re-analysis of the deposited data

Results flagged for a closer look

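The LMNB1 effect with V133A minus that with WT differed by edgeR's test of the difference at 3 member bins. It was 1.71 log2 at the CENPW bin (adjusted p 0.0449), -3.62 at the CENPI bin (adjusted p 0.0449) and -2.09 at the NSL1 bin (adjusted p 0.048). All 3 calls ended with the replicate block (adjusted p 0.0599, 0.0599 and 0.0658, edgeR) and without DamWT-LMNB1 replicate 1 or any one of the 4 untethered libraries (adjusted p 0.115 to 0.299 at CENPW and CENPI, 0.117 to 0.299 at NSL1). The NSL1 bin was at 72.2 and 76.4 CPM with DamV133A, 12.0 and 13.4 with its fusion, 60.3 and 52.7 with DamWT and 45.8 and 36.4 with its fusion. The V133A fusion libraries were the lowest there and at CENPI, and the highest at CENPW.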

How the results depend on the processing

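Of 1024 alternatives for 62 gene results, 1019 kept the direction, 194 of these lost the call and 74 gained one. Member calls ranged over single left-out libraries from 1 to 24 (fusion against untreated), 3 to 26 (DamV133A against untreated), 1 to 22 (m6A-Tracer against untreated), 0 to 23 (fusion against DamV133A), 0 to 8 (DamV133A against m6A-Tracer) and 0 to 23 (fusion against m6A-Tracer). Calls over all genes rose and fell with the same left-out libraries. With no low-count filter, the member counts in this order were 16, 15, 11, 14, 1 and 11. Over all genes 4838, 3506, 5436, 330 and 4174 were then called, with DamV133A against untreated cells not given. With only the 2 groups compared the member counts were 1, 26, 22, 0, 8 and 0. Over all genes 245, 8723, 6878, 1 and 1996 were then called, with the last contrast not given. Leaving out both fusion libraries, an alternative chosen after seeing the data, gave 26, 22 and 8 members where those libraries take no part. Beside these, 50.0%, 39.6% and 12.1% of all genes were called. DESeq2 called 1 and 8 members in the last 2 contrasts, beside 57 and 2552 of all genes. With the replicate block the member counts were 7, 12, 4, 5, 0 and 0. The fusion against DamV133A then called 2077 of all genes, and the other contrasts stand without that number. Replicate differences correlated between groups at -0.063 to 0.023 in RNA and 0 to 0.031 in DNA. Such values cannot settle whether same-numbered libraries were made together, which the labels do not say. Gene results changed direction for BUB1 (-0.0468 without fusion replicate 1 and up to 0.162), BUB1B (-0.1093 to 0.0705, the highest without fusion replicate 2) and CENPE (-0.3862 to 0.1093, likewise), all for the fusion against untreated cells, CENPW with m6A-Tracer (0.0037, library totals) and NDC80 between the fusion and DamV133A (-0.0839 to 0.0178, the highest without DamV133A replicate 2).

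At the CENPC bin the WT effect was -0.0031 with DESeq2 size factors, -0.15 with library totals and -0.0011 in DESeq2's test, and -0.10 to 0.11 over left-out libraries; the V133A effect was 0.66 over the gene and its surroundings (adjusted p 0.0255). At the CENPW bin the WT effect was 0.66 in DESeq2's test (adjusted p 0.00597) and 0.51 to 0.82 over left-out libraries, and the difference between Dam variants 1.71 with the replicate block (adjusted p 0.0599) and 1.53 to 1.87 over left-out libraries. In bulk, library totals gave 0.68 at CENPC and 1.22 at CENPW, and member bins called lower ranged from 13 to 21 over left-out libraries. Contact at a threshold of 2 was 20.0% and 16.7% of cells at CENPC and 20.0% and 22.2% at CENPW in the first and second batch, and 35.7% at CENPW in the first batch with cells thinned to 10000 fragments (1 shallower cell left out). The cause of these changes was not tested. In simulated variant bins, 6% of 2-fold and 62% of 4-fold changes were recovered, which limits small effects there.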
